A study of Rattus norvegicus with 9 samples.

Results

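The cytosolic ribosome is built from ribosomal RNA and a set of ribosomal proteins, and the genes of those proteins are described here in rat kidney. The members were the rows of the gene table whose symbol has the form Rps, Rpl or Rplp followed by a number, with the row of highest mean taken where a symbol was repeated and at least 1 CPM required in at least 3 libraries. CPM is the read count of a gene scaled to a common library total. There were 77 members of 36267 features in all, 31 of the small subunit (Rps) and 46 of the large subunit (Rpl and Rplp). The rule matched 90 rows with 83 symbols. The 6 symbols under the minimum were Rpl30l1, Rpl37, Rpl38, Rpl39l, Rpl3l and Rps29, whose highest value in any library was 1.33 CPM. The symbols Rplp1, Rps7, Rps9, Rps14 and Rps26 are not among the matched rows and are not analysed here.

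The libraries were made from kidneys of 9 rats of 180 to 200 g, 3 in each of 3 groups; the labels give no strain, sex or age and do not say at what time after the injection the kidneys were taken. Control rats (CON) received none of the agents. Rats with contrast-induced acute kidney injury (CIAKI) received the loop diuretic furosemide into the stomach at 200 mg/kg, underwent dehydration for 6 h, and were injected in the tail vein with iopromide, an iodinated X-ray contrast agent of 370 mg I/mL, at 15 mL/kg. Rats of the third group (ICA) had the whole CIAKI procedure and, before it, icariin, a flavonoid glycoside of Epimedium plants, once a day for 3 days at 100 mg/kg. Furosemide, dehydration and contrast were thus always given together and cannot be told apart, and icariin was never given without them.

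Ribosomal proteins assemble with ribosomal RNA in the nucleolus into a small subunit, which reads the mRNA, and a large subunit, which joins the amino acids. The proteins are needed in matched amounts, and their genes tend to move together across tissues and states. Most of their mRNAs begin with a C followed by a run of pyrimidines (the 5′ terminal oligopyrimidine or TOP motif), through which the kinase complex mTORC1 and the binding protein Larp1 control how long these mRNAs last and how often they are translated.

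The start sites of 59 of the 77 members were found in the RefSeq promoter table (GRCr8 build), and 36 of the 59 (61.0%) had such a pyrimidine run at the annotated start. The run searched for was a C within 5 bases of the start base, on the transcribed strand, with at least 4 further C or T bases behind it. The same search found a run in 1859 of 9945 tested genes with a promoter (18.7%). The sequences below show members on which the later results turn. Each holds the 30 bases before the annotated start and the 20 bases from the start on, with the pyrimidine run in capitals. The first 6 members hold a run. They are the stalk protein gene Rplp0, Rpl4 and Rpl10, which gave the most reads per length among the large-subunit genes of the authors' selected table, Rpl9, which had the largest increase, Rpl29, which had the smallest among those that passed, and Rps15, which stayed closest to its CIAKI level under icariin among the members that rose.
Rplp0: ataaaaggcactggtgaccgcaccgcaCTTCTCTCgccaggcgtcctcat
Rpl4: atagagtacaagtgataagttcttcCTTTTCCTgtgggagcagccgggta
Rpl10: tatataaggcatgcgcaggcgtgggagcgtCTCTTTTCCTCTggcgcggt
Rpl9: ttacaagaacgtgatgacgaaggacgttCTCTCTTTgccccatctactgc
Rpl29: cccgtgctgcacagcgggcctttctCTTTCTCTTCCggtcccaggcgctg
Rps15: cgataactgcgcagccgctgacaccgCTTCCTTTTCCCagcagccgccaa
The next 4 have no run that meets the rule at the annotated start, and are shown because Rps12, Rps6 and Rplp2 are described in detail and Rpl22l1 did not pass the test.
Rps12: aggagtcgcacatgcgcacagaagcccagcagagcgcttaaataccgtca
Rps6: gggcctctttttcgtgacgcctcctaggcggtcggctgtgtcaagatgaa
Rplp2: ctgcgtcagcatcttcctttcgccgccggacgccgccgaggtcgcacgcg
Rpl22l1: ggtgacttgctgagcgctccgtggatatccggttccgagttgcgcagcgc
In Rps6 and Rplp2 a stretch of C and T lies upstream of the annotated start, outside the reach of the search. These windows are at chr12:46718371-46718420 (minus strand, Rplp0), chr8:73566447-73566496 (plus strand, Rpl4), chrX:157205820-157205869 (plus strand, Rpl10), chr14:43247560-43247609 (plus strand, Rpl9), chr8:115947613-115947662 (plus strand, Rpl29), chr7:10068096-10068145 (minus strand, Rps15), chr1:23500045-23500094 (plus strand, Rps12), chr5:106420521-106420570 (minus strand, Rps6), chr1:205975891-205975940 (plus strand, Rplp2) and chr2:113683166-113683215 (plus strand, Rpl22l1) of GRCr8. The median log2 fold change between CIAKI and control was 0.64 over the 36 members with a run at the annotated start and 0.60 over the 23 without. Rps3, Rpl13a and Rpl21, among the 23, also hold a stretch of C and T upstream of that start. The medians therefore do not compare genes with and without a TOP motif. Other short motifs, searched on both strands of the 300 bases around the start, stood in members and tested genes as follows. The ETS motif CCGGAAG was in 28.8% of members and 17.4% of tested genes, TATAAA in 13.6% and 7.45%, the GC box GGGCGG in 54.2% and 63.2%, the E-box CACGTG bound by Myc in 8.47% and 9.55%, and the YY1 motif AAGATGGC in 6.78% and 5.66%. A match describes letters in this window and does not show that a factor binds there.

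The deposited values came from 64380578 to 90398405 reads per library, and a member had between 8 and 81079 reads in a library, with at least 100 in every library for 73 members. Counting error was therefore small for all but Rps4y2, Rpl10l, Rpl35a and Rpl9, the members under 100 reads in some library. A library that stood apart was ICA-2, in which mitochondrially encoded genes took 1.65% of reads against 3.86 to 5.71% in the other 8 libraries. The kidney label fitted the proximal tubule markers Lrp2, Cubn, Slc34a1, Slc5a2, Slc22a6 and Miox, which were present in every library. In bulk kidney RNA, a change in the number of cells of a type and a change in RNA per cell cannot be told apart.

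In kidneys after contrast, the ribosomal protein genes as a group took more of the RNA than in untreated kidneys, and in kidneys pretreated with icariin they stood near the untreated level. The members summed to 7992, 8107 and 7656 CPM in the control rats, 14030, 11664 and 12306 CPM in the CIAKI rats and 8458, 8713 and 8283 CPM in the icariin rats. All CIAKI sums lay above all others, and the icariin sums lay above the control sums by less than their distance to CIAKI. As a share of reads this was 0.792% ± 0.0234 in control, 1.27% ± 0.122 in CIAKI and 0.848% ± 0.0217 in icariin kidneys (SD, n = 3 each). The ratio of the group means was 1.60 for CIAKI to control, 0.67 for icariin to CIAKI and 1.07 for icariin to control.

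**Figure D1:**
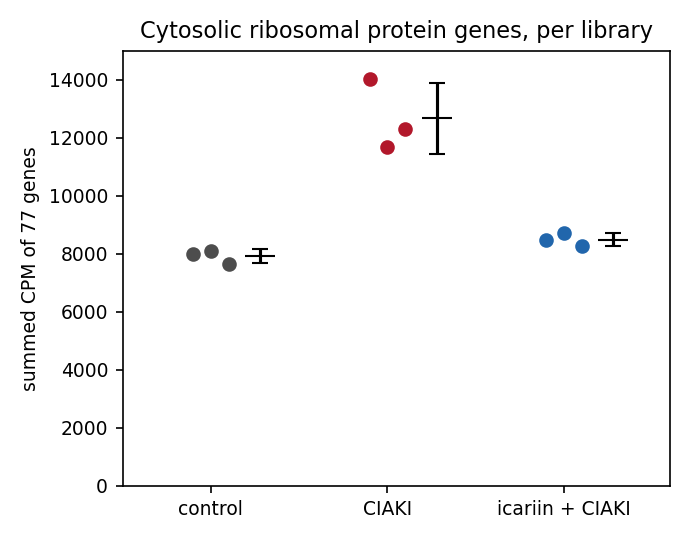
Summed CPM of the 77 ribosomal protein genes in each of the 9 libraries (points, 1 per rat) with the group mean and SD (bar, n = 3). The CIAKI rats sit between 11664 and 14030 CPM, and the control and icariin rats between 7656 and 8713 CPM.

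Gene by gene, 66 of the 77 members were higher in CIAKI than in control at an adjusted p below 0.05 (limma on log2(CPM + 1), all features tested together), none was lower and 11 did not pass. Among all 16731 tested features 20.8% were called higher and 20.5% lower. The median log2 fold change of the members was 0.64, which is 1.56 times the control level, while the median over all tested features was -0.0027 and over the 9960 features with a mean of at least 10 CPM was 0.07. The middle of the distribution was narrow, from 0.52 at the lower to 0.77 at the upper quartile, and single members ranged from -0.50 to 1.44. Small-subunit genes rose in 26 of 31 cases (median 0.65) and large-subunit genes in 40 of 46 (median 0.60). For 67 members every CIAKI rat lay above every control rat, and for 1 member (Rps10l1) every CIAKI rat lay below, against 4500 and 4426 of all 16731 features.

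Between icariin and CIAKI kidneys, 64 members were lower under icariin, none was higher and 13 did not pass, where 20.2% of all tested features were called lower and 19.2% higher. The median log2 fold change was -0.58 over the members and 0.02 over all tested features. This comparison uses the same CIAKI libraries as the one before, so the 2 are not independent. The counts were 24 of 31 small-subunit genes (median -0.59) and 40 of 46 large-subunit genes (median -0.55). For 66 members every icariin rat lay below every CIAKI rat, and for 11 the groups overlapped, where 4325 of all 16731 features had every icariin rat below and 4158 above.

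**Figure D2:**
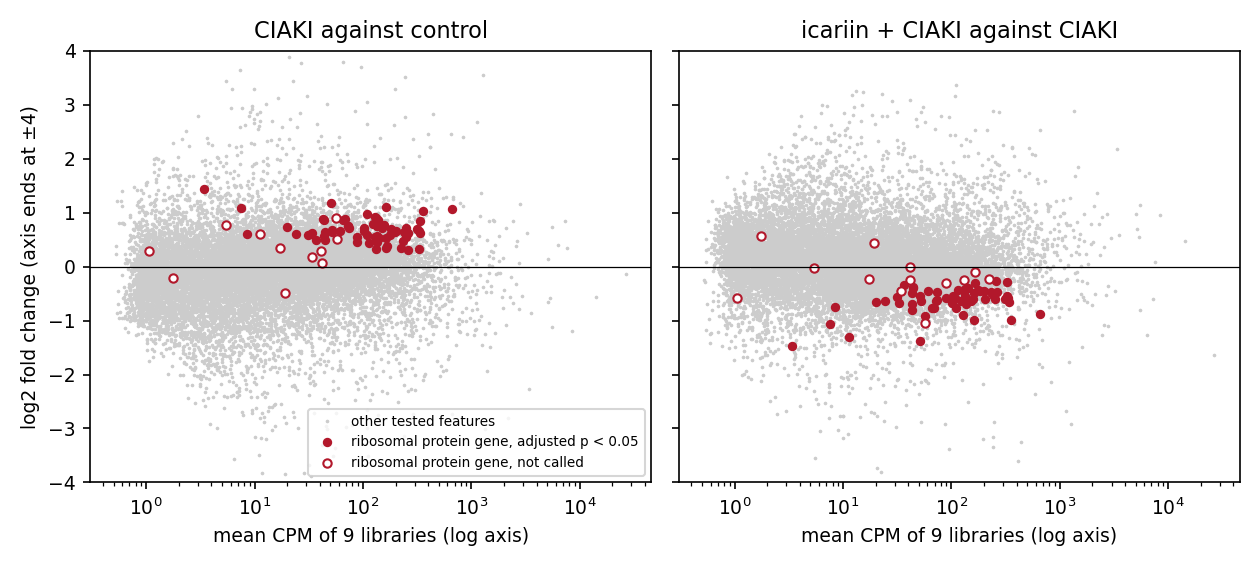
Log2 fold change against mean CPM for all 16731 tested features (grey) and the 77 ribosomal protein genes (red, filled where the adjusted p was below 0.05), for CIAKI against control (left) and icariin against CIAKI (right). Most members lie around their medians of 0.64 on the left and -0.58 on the right, and those of lowest CPM scatter most, from -0.21 (Rpl35a) to 1.44 (Rpl9) on the left.

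At the stalk of the large subunit, which recruits the elongation factors, 2 genes were measured. Rplp0, the scaffold of the stalk, stood at 478, 484 and 436 CPM in control, 975, 1029 and 926 CPM in CIAKI and 532, 552 and 515 CPM in icariin rats. Each icariin rat lay above each control rat and far below each CIAKI rat, and the log2 fold change between CIAKI and control was 1.07 (SE 0.08, adjusted p = 4.11e-05) and that between icariin and CIAKI -0.87 (SE 0.08, adjusted p = 0.000104). Rplp2, an acidic protein that binds to this scaffold, stood at 10, 10.6 and 10.9 CPM in control, 18.8, 14.6 and 16.0 CPM in CIAKI and 11.8, 4.97 and 3.54 CPM in icariin rats. The control and CIAKI rats did not overlap, but the spread among the icariin rats was wide. The gene did not pass between CIAKI and control (log2 fold change 0.60, SE 0.32, adjusted p = 0.164), whereas with only those groups in the fit it did. It was lower in icariin than in CIAKI kidneys by the test (-1.31, SE 0.32, adjusted p = 0.0109).

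Among the core proteins of the large subunit, Rpl4, which lines the exit tunnel of the growing peptide, stood at 268, 270 and 252 CPM in control, 619, 500 and 498 CPM in CIAKI and 268, 273 and 266 CPM in icariin rats. The control and icariin rats were interleaved, and the CIAKI rats stood far above them (log2 fold change 1.02, SE 0.09, adjusted p = 8.13e-05, and -0.99, SE 0.09, adjusted p = 0.00012, for icariin against CIAKI). Rpl8, which sits close to the site of peptide bond formation, was among the tightest members. Its values were 95.1, 96.9 and 95.1 CPM in control, 177, 156 and 164 CPM in CIAKI and 104, 109 and 105 CPM in icariin rats, with log2 fold changes of 0.78 (SE 0.06, adjusted p = 5.56e-05) and then -0.64 (SE 0.06, adjusted p = 0.000166). Rpl10, which joins the large subunit late in its maturation, went from 261, 264 and 247 CPM in control to 511, 418 and 461 CPM in CIAKI and stood at 268, 294 and 315 CPM under icariin. Its groups did not overlap in any comparison, with log2 fold changes of 0.84 and -0.66 (SE 0.09 each). Rpl3, another protein of the peptidyl transferase region, rose by 0.63 and was 0.46 lower on the log2 scale under icariin than in CIAKI.

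The proteins Rpl5 and Rpl11 bind the 5S ribosomal RNA and, when free, the p53 ubiquitin ligase Mdm2. Rpl11 stood at 134, 139 and 146 CPM in control, 228, 181 and 199 CPM in CIAKI and 146, 148 and 138 CPM in icariin rats (log2 fold change 0.53, SE 0.09, adjusted p = 0.00161, then -0.48, SE 0.09, adjusted p = 0.00277). Rpl5 changed less. It stood at 202, 194 and 200 CPM in control, 299, 213 and 250 CPM in CIAKI and 212, 219 and 214 CPM in icariin rats, so that CIAKI-2 lay among the icariin rats. Its increase in CIAKI was 0.34 (SE 0.11, adjusted p = 0.0308), and its difference between icariin and CIAKI did not pass (-0.23, SE 0.11, adjusted p = 0.122). The call of Rpl5 in CIAKI was lost on leaving out any of CON-1, CON-2, CON-3, CIAKI-1 or CIAKI-3 (adjusted p 0.0597 to 0.0834, and 0.22 on the log2 scale without CIAKI-1). In all, this call was lost in 9 of the 23 alternatives.

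Other large-subunit genes of known position or extraribosomal role followed the majority. Rpl13a, which is released from the ribosome in the interferon response, rose by 0.71, Rpl22 by 0.59 and Rpl39, a small protein of the exit tunnel, by 0.56, and they differed by -0.60, -0.55 and -0.49 between icariin and CIAKI. Rpl41, the shortest ribosomal protein, rose by 0.48 (adjusted p = 0.0212) and differed by -0.47 (adjusted p = 0.0238). The first call of Rpl41 was lost without CON-3 (0.41, adjusted p = 0.0742) and the second without ICA-3 (-0.38, adjusted p = 0.0801), and without CIAKI-1 the second value was -0.31. The smallest increases that passed in the large subunit were those of Rpl29 (0.31, SE 0.07, adjusted p = 0.00843) and Rpl7 (0.32, SE 0.06, adjusted p = 0.00335). Rpl29 stood at 232, 253 and 227 CPM in control, 288, 284 and 313 CPM in CIAKI and 234, 260 and 240 CPM in icariin rats, so the CIAKI rats lay above all others even at this small difference. Its difference between icariin and CIAKI (-0.27, adjusted p = 0.0176) did not pass without CIAKI-3, ICA-1 or ICA-3 (adjusted p 0.0504 to 0.0631).

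The largest fold change belonged to Rpl9, a protein at the base of the stalk on the large subunit, at very low levels. It stood at 1.66, 1.67 and 1.51 CPM in control, 3.73, 4.21 and 13.3 CPM in CIAKI and 1.32, 1.77 and 1.55 CPM in icariin rats. All CIAKI rats were above all others, and CIAKI-3 was more than 3 times the other CIAKI rats. The log2 fold change was 1.44 (SE 0.36, adjusted p = 0.0118) and, for icariin against CIAKI, -1.48 (SE 0.36, adjusted p = 0.0111). Without CIAKI-3 these values were 0.93 and -0.97 and both passed.

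In the small subunit, Rps3, at the entry of the mRNA channel, stood at 118, 108 and 100 CPM in control, 193, 180 and 181 CPM in CIAKI and 113, 123 and 105 CPM in icariin rats, and the control and icariin rats were again interleaved (log2 fold change 0.76, SE 0.08, adjusted p = 0.000225, then -0.70, SE 0.08, adjusted p = 0.000377). Rps6, the substrate of the S6 kinases that act below mTORC1, stood at 81.3, 128 and 101 CPM in control, 196, 163 and 204 CPM in CIAKI and 115, 123 and 129 CPM in icariin rats. The controls of Rps6 were spread widely but stayed below CIAKI, with log2 fold changes of 0.87 (SE 0.15, adjusted p = 0.00217) in CIAKI and -0.61 (SE 0.15, adjusted p = 0.0122) between icariin and CIAKI. Rps19, which is needed to mature the 18S ribosomal RNA, rose by 0.88 and was 0.68 lower under icariin than in CIAKI. Rps4x rose by 0.62 and Rps3a by 0.65, and they differed by -0.59 and -0.55 between icariin and CIAKI.

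Rps12 had a large but uneven change. It stood at 55.7, 36.6 and 21.6 CPM in control, 88.2, 72.3 and 83.8 CPM in CIAKI and 22.9, 53.3 and 23.1 CPM in icariin rats. The CIAKI rats were the highest and close together, while control and icariin rats varied more than 2-fold among themselves. The log2 fold change of Rps12 was 1.18 (SE 0.37, adjusted p = 0.0313), lost without CON-2, CON-3 or any CIAKI rat (adjusted p 0.0545 to 0.101, and 0.83 on the log2 scale without CON-3). In all, this call was lost in 6 of the 23 alternatives. For icariin against CIAKI the log2 fold change was -1.38 (SE 0.37, adjusted p = 0.0168), lost without CIAKI-1, ICA-1 or ICA-3 (adjusted p 0.0514 to 0.0584).

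Rps15, a small-subunit protein near the decoding site, was the member that rose in CIAKI and differed least from it under icariin. It stood at 139, 144 and 143 CPM in control, 193, 175 and 175 CPM in CIAKI and 178, 175 and 154 CPM in icariin rats. The icariin rats lay above all control rats, and ICA-1 and ICA-2 lay within or next to the range of the CIAKI rats. The increase in CIAKI was 0.35 (SE 0.07, adjusted p = 0.00525), the difference between icariin and CIAKI was -0.10 (SE 0.07, adjusted p = 0.303) and that between icariin and control was 0.25 (SE 0.07, adjusted p = 0.231). Rpl34 also overlapped, with 68.0, 88.8 and 72.0 CPM in control, 130, 87.6 and 99.9 CPM in CIAKI and 80.7, 90.2 and 83.4 CPM in icariin rats. Its increase of 0.46 (adjusted p = 0.0326) was lost without CON-1, CON-3, CIAKI-1 or CIAKI-3 (adjusted p 0.0523 to 0.109, and 0.30 on the log2 scale without CIAKI-1). In all, this call of Rpl34 was lost in 9 of the 23 alternatives.

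Several members are paralogues of a canonical gene, and the genes of a pair were not always called alike. Rps27l, a p53-inducible copy of Rps27, stood at 20.9, 23.3 and 18.1 CPM in control, 35.0, 28.4 and 32.1 CPM in CIAKI and 18.5, 19.8 and 21.7 CPM in icariin rats, and passed both tests (0.60, adjusted p = 0.00383, and -0.64, adjusted p = 0.00289). Rps27 itself stood at 42.1, 32.7 and 38.8 CPM in control, 58.0, 38.8 and 43.5 CPM in CIAKI and 39.2, 37.3 and 40.3 CPM in icariin rats, with overlapping groups and no call (0.29, adjusted p = 0.146). No difference between paralogues was tested, in this pair or in those that follow. Rpl22 was called (0.59) and Rpl22l1 was not (0.18, SE 0.22, adjusted p = 0.542), with Rpl22l1 at 34.6, 33.0 and 34.7 CPM in control, 47.2, 33.4 and 37.2 CPM in CIAKI and 27, 20 and 41 CPM in icariin rats. Rpl7l1, a relative of Rpl7 that acts in ribosome assembly, rose by 0.60 against 0.32 for Rpl7.

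The copy Rps18l1 rose by 1.09 (SE 0.18, adjusted p = 0.00145) at 4.57 to 14.7 CPM, and Rps19l2 and Rps9l1 rose by 0.75 and 0.65. Rps10l1 was the member whose CIAKI rats all lay below the controls: it stood at 20, 21.3 and 23.0 CPM in control, 16.8, 14.5 and 13.5 CPM in CIAKI and 24.9, 25.3 and 13.7 CPM in icariin rats. Its log2 fold change of -0.50 (SE 0.21) had an adjusted p of 0.0851, and its difference between icariin and CIAKI of 0.44 had an adjusted p of 0.124. Without ICA-3, which stood with the CIAKI rats, both passed (-0.50, adjusted p = 0.00709, and 0.72, adjusted p = 0.00364). Rpl10l, a copy of Rpl10 best known from testis, stayed between 0.238 and 1.84 CPM and did not pass. Ribosomal protein genes have many near-identical copies in the genome and the sources used here do not say how reads shared between copies were handled, so values of paralogues and of members with low levels are uncertain.

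**Figure D3:**
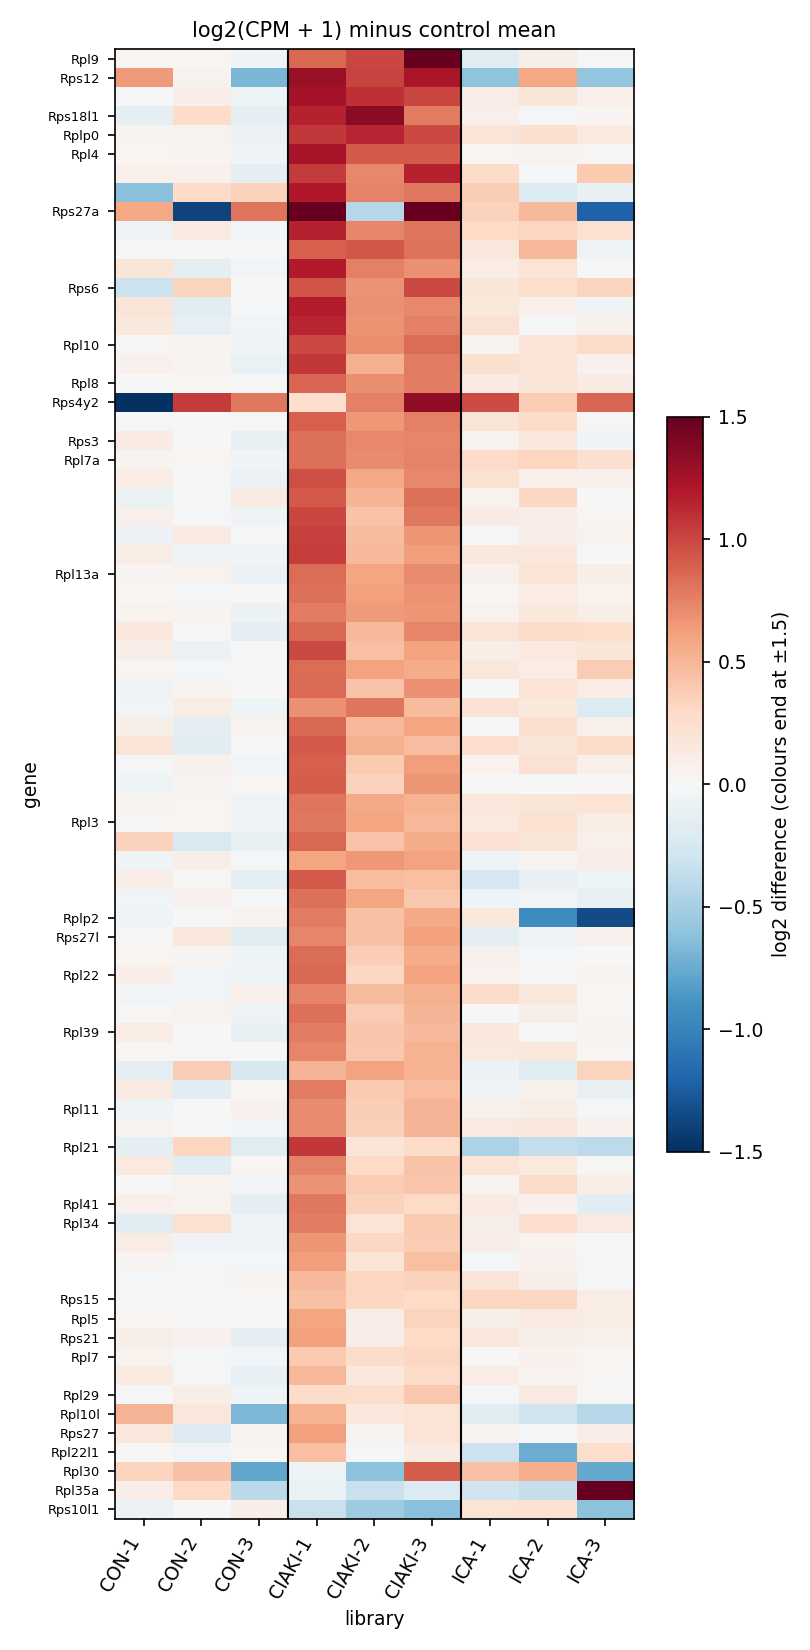
Log2(CPM + 1) minus the mean of the control rats for the 77 members (rows, ordered by the log2 fold change of CIAKI against control) in the 9 libraries (columns), with colours ending at ±1.5 and a name at members the text turns to. The CIAKI columns are red in nearly all rows and CIAKI-1 is the darkest, and Rps27a, Rps4y2, Rpl30, Rpl35a and Rps10l1 break the pattern.

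The CIAKI rats differed in degree. Over the members, the median difference from the control mean on the log2 scale was 0.82 in CIAKI-1, 0.48 in CIAKI-2 and 0.60 in CIAKI-3, against 0.11, 0.14 and 0.04 in the icariin rats. CIAKI-1 had the highest value of all 9 libraries for 63 of the 77 members, and CIAKI-2 was the lowest of the 3 CIAKI rats for 57. Without CIAKI-1 the median log2 fold change was 0.55 and 60 members were higher, and between icariin and CIAKI it was -0.45 with 57 lower. These counts were taken over the members alone, without the shares of all features. They do not show that CIAKI-1 stood apart for these genes in particular.

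For most members the scatter between rats of a group was small: the pooled SD on the log2 scale had a median of 0.157. It exceeded 0.3 for 11 members, namely Rps27a, Rps4y2, Rpl30, Rpl35a, Rps12, Rpl9, Rplp2, Rpl17, Rpl10l, Rpl22l1 and Rpl21. These included 8 of the 11 members that did not pass between CIAKI and control; the other 3 were Rps21, Rps27 and Rps10l1. Rpl30 stood at 47.3, 50.9 and 21.3 CPM in control, 35.4, 24.0 and 70.8 CPM in CIAKI and 50.7, 54.6 and 21.5 CPM in icariin rats, with no separation in any direction. Rpl35a stayed at 0.793 to 1.91 CPM in 8 rats and at 6.75 CPM in ICA-3, and Rps4y2 was at 0.11 CPM in CON-1 and at 3.70 to 8.95 CPM in the other 8 rats. Rps21, at 16.3, 16.1 and 13.7 CPM in control and 23.9, 16.5 and 19.0 CPM in CIAKI rats, had groups that did not overlap but missed the threshold (0.34, adjusted p = 0.0738).

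The member with the widest scatter, Rps27a, encodes a fusion of ubiquitin with a small-subunit protein and had 2 rows in the table. The member row stood at 56.7, 13.8 and 66.8 CPM in control, 117, 27.8 and 112 CPM in CIAKI and 48.1, 53.2 and 15.7 CPM in icariin rats. The second row stood at 32.1, 69.4 and 15.3 CPM, then 61.6, 91.6 and 30.5 CPM, then 42.2, 39.3 and 76.2 CPM in the same rats. In each group the rat with the lowest value in the member row had the highest value in the second. Their sum was steady within the control and icariin groups, at 88.8, 83.3 and 82.1 CPM in control, 179, 119 and 142 CPM in CIAKI and 90.3, 92.5 and 91.9 CPM in icariin rats, and the CIAKI rats lay above all others, which neither row showed alone. The member row did not pass (0.91, SE 0.73, adjusted p = 0.353). Repeated rows of Rpl21, Rpl32 and Rpl7a also had summed values higher in CIAKI than in control, at 1.48, 1.48 and 1.68 times the control mean. The Rpl21 sums were 109, 148 and 116 CPM in control and 222, 152 and 179 CPM in CIAKI rats, so these groups were just apart, while the member row of Rpl21 overlapped (0.52, adjusted p = 0.0861).

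**Figure D4:**
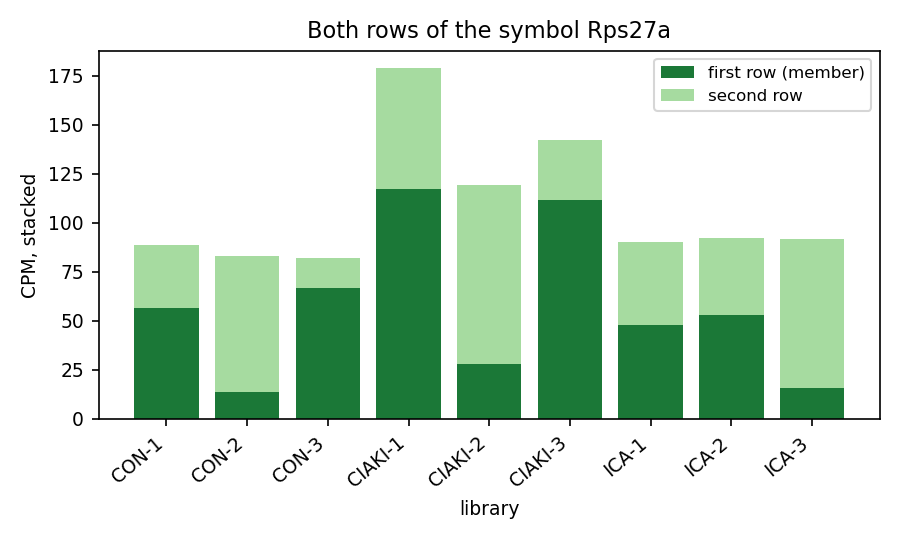
CPM of both rows of the symbol Rps27a, stacked, in the 9 libraries. The split between the rows changes from rat to rat, while the summed height is 82.1 to 92.5 CPM in control and icariin rats and 119 to 179 CPM in CIAKI rats.

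Between icariin and control kidneys none of the 77 members passed the limma test in either direction, where 0.4% of all tested features were called higher and 0.227% lower. At an unadjusted p below 0.05 there were 8 members, all higher under icariin, and 792 higher and 912 lower of all 16731 features. Of the members, edgeR called 0 and DESeq2 called 2, Rpl7a and Rps15. The shares of all features called by edgeR and DESeq2 were not taken, so these counts cannot be set beside them. The median log2 fold change was 0.09, with 65 members above and 12 below 0. For 15 members all icariin rats lay above all control rats and for 2 (Rpl21 and Rpl7l1) below, against 1526 and 1700 of all 16731 features. Rpl7a had the smallest p: it stood at 57.8, 57.0 and 53.3 CPM in control, 99.7, 92.2 and 94.2 CPM in CIAKI and 68.5, 70.4 and 66.2 CPM in icariin rats, so that its icariin level lay between the other groups. The difference from control was 0.28 (SE 0.06, adjusted p = 0.112). A p that misses the threshold does not show that the icariin and control kidneys were alike.

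Levels can be compared between genes only where length is taken into account, which the FPKM values in the authors' deposited table of selected mRNAs do for the CIAKI and icariin rats. The table held 34 members. In the authors' deposited table, Rplp0 was the highest of these with 687 ± 37.7 FPKM in CIAKI and 383 ± 8.13 FPKM in icariin rats (SD, n = 3 each). Rpl10 followed at 465 and 301 FPKM, Rps20 at 390 and 258 FPKM and Rpl4 at 298 and 153 FPKM in the authors' deposited table. The lowest was Rpl10l at 1.72 and 0.748 FPKM. Of the 34 members, 33 were lower in icariin than in CIAKI rats, and Rpl35a was the other one. The authors' table was selected from these same rats, so this count is not separate support for the test. The authors' selection holds 31 of the 64 members called lower here and leaves out 33, and it splits them by size: the smallest log2 difference among those inside and the largest among those outside were both 0.60.

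Ribosomal proteins whose symbols do not follow the rule mostly moved in the direction of the members. Of the 5 tested, 4 rose in CIAKI, with a median of 0.50 over the 5, where 20.8% of all tested features were called higher. Between icariin and CIAKI, 3 of the 5 were lower (median -0.45), where 20.2% of all tested features were called lower. Rpl36al (-0.29, adjusted p = 0.0681) and Fau did not pass in that comparison. Rpsa and Rack1, which sit on the small subunit, rose by 0.60 and 0.80. The gene not called in CIAKI was Fau, a fusion of a ubiquitin-like protein with the small-subunit protein eS30, at 53.5, 26.7 and 46.1 CPM in control, 18.5, 43.0 and 14.9 CPM in CIAKI and 41.4, 70.9 and 28.3 CPM in icariin rats. Its groups overlapped and it did not pass in CIAKI (-0.79, adjusted p = 0.176) or between icariin and CIAKI (0.90, adjusted p = 0.13).

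The other list of genes known for TOP mRNAs held translation factors and related proteins. Of its 12 tested genes, 10 rose in CIAKI and none fell (median 0.67), where 20.8% of all tested features were called higher. Between icariin and CIAKI, 10 were lower (median -0.61), where 20.2% of all tested features were called lower. The elongation factor gene Eef1b2 rose by 1.10, Pabpc1, which encodes the poly(A)-binding protein, by 1.08, the nucleolar chaperone gene Npm1 by 1.17 and Nap1l1 by 1.20. Eef2, the translocation factor, stood at 1110, 1097 and 1070 CPM in control, 2141, 1969 and 1772 CPM in CIAKI and 1292, 1339 and 1213 CPM in icariin rats. Eif4b (0.22, adjusted p = 0.0623) and Hnrnpa1 (0.32, adjusted p = 0.129) did not pass. Of 9 of these genes with a promoter entry, 4 had the pyrimidine run.

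Genes that control TOP mRNAs were mixed. Of 18 genes of mTORC1 and its effectors, 6 rose, 2 fell and 10 did not pass in CIAKI, with a median of 0.16. Among all tested features 20.8% were called higher and 20.5% lower. Larp1, the TOP-binding protein, stood at 136, 134 and 138 CPM in control, 236, 203 and 203 CPM in CIAKI and 134, 131 and 127 CPM in icariin rats (log2 fold change 0.65, adjusted p = 0.000227, then -0.70, adjusted p = 0.000186). Eif4ebp1, a repressor of cap-dependent initiation, rose by 1.41 and Akt1s1, an mTORC1 inhibitor, by 0.72, and the cap-binding gene Eif4e rose by 0.61. Sesn1 and Sesn3, which encode sestrins that restrain mTORC1, fell by 0.92 and 0.53. Sesn3 was also lower in icariin than in control kidneys (-0.56, adjusted p = 0.0395), and the kinase gene Mtor did not pass in CIAKI (-0.04, adjusted p = 0.606). Between icariin and CIAKI, 5 of the 18 genes were lower and 3 higher, where 20.2% of all tested features were called lower and 19.2% higher. The 3 were Mtor (0.24, adjusted p = 0.0151), Ddit4 (0.59, adjusted p = 0.00177) and Sesn1 (0.62, adjusted p = 0.00281). These are mRNA levels, and the activity of the kinase was not measured.

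Of 14 genes of ribosome production, 13 rose in CIAKI and 13 were lower in icariin than in CIAKI, with medians of 0.91 and -0.95. Among all tested features 20.8% were called higher in CIAKI and 20.2% lower in icariin than in CIAKI. Myc, a transcription factor that drives ribosome synthesis, stood at 6.19, 7.61 and 7.97 CPM in control, 68.0, 111 and 50.5 CPM in CIAKI and 6.05, 9.70 and 9.86 CPM in icariin rats (log2 fold change 3.16, adjusted p = 7.79e-05). The RNA polymerase I subunit gene Polr1b rose by 1.03 and Fbl, the ribosomal RNA methylase fibrillarin, by 1.04. Ubtf, a polymerase I factor, did not pass (-0.15, adjusted p = 0.185). Among 10 chaperones and surveillance genes of ribosomal proteins, 8 rose, including Grwd1 (0.79) and Rrs1 (0.66), both of which escort ribosomal proteins into assembly, and Mdm2 (0.48), while Mdm4 fell by 0.37.

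Mitochondrial ribosomal proteins, which are encoded by separate genes, moved less. Of 75 tested, 21 rose, 4 fell and 50 did not pass in CIAKI (median 0.13), where 20.8% of all tested features were called higher and 20.5% lower. Between icariin and CIAKI, 14 were lower and 4 higher (median -0.06), where 20.2% of all tested features were called lower and 19.2% higher. The difference between these genes and the cytosolic members was not tested. Mrps6 had the largest increase among them, at 1.07, and Mrps26 the largest decrease, at -0.41.

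**Figure D5:**
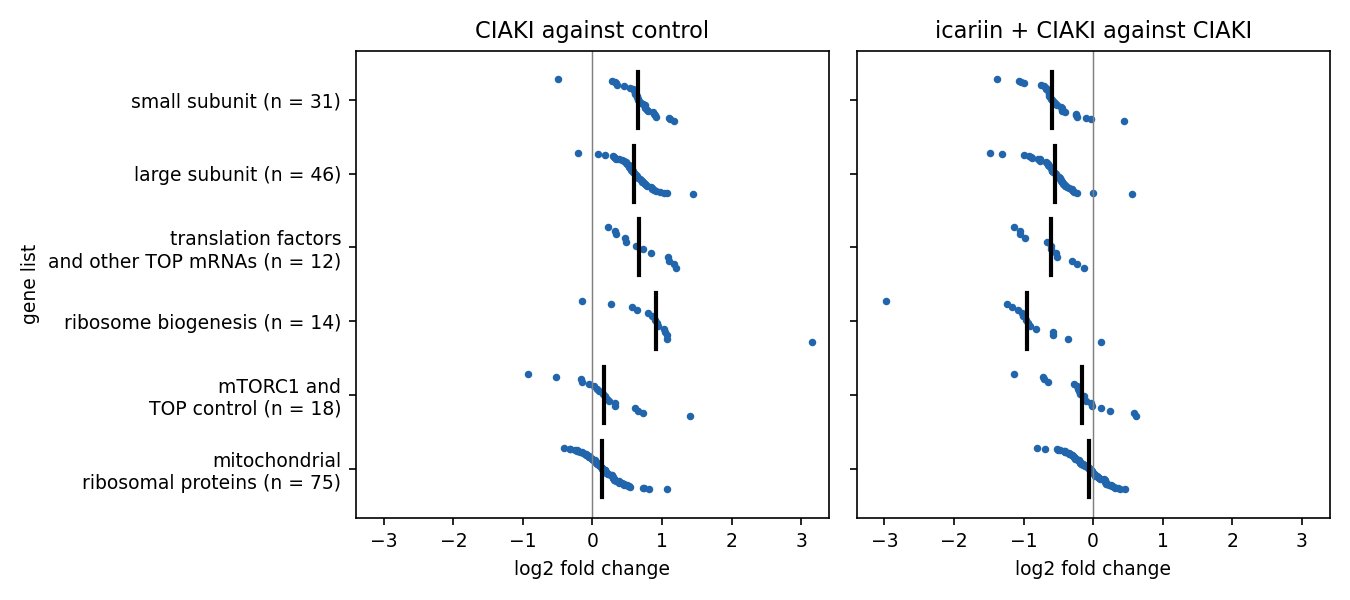
Log2 fold change of each gene (points) and the median (black bar) for 6 gene lists, in CIAKI against control (left) and icariin against CIAKI (right). The medians on the left are 0.65 and 0.60 for the small and large subunit, 0.67 for other TOP mRNAs, 0.91 for ribosome biogenesis, 0.16 for mTORC1 and TOP control and 0.13 for mitochondrial ribosomal proteins.

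Markers of several cell types moved in the same comparisons. The 6 proximal tubule markers summed to 18628 to 22164 CPM in control, 7120 to 9880 CPM in CIAKI and 17878 to 19696 CPM in icariin rats, with 5 of 6 lower in CIAKI and Cubn not called. The erythroid marker list of 3 genes summed to 70.5 to 415 CPM in control, 685 to 848 CPM in CIAKI and 69.5 to 428 CPM in icariin rats. The haemoglobin gene Hbb stood at 401, 78.0 and 68.6 CPM in the control rats with ribosomal protein sums of 7992, 8107 and 7656 CPM, and at 67.5, 416 and 397 CPM in the icariin rats with sums of 8458, 8713 and 8283 CPM. Across the groups, the erythroid sums and the ribosomal protein sums were both highest in the CIAKI rats. The relation between these sums was not tested. Of the lymphocyte markers all 5 tested were lower in CIAKI, of 8 macrophage markers 4 were lower and none higher, and the neutrophil markers summed to at most 3.82 CPM in any rat. All 4 podocyte markers, the 2 endothelial markers tested and 2 of 3 thick ascending limb markers were lower in CIAKI. The thick ascending limb marker not called was Slc12a1, with a log2 fold change above 0 (0.56, adjusted p = 0.141). None of 2 intercalated cell markers was called. The principal cell markers Aqp2 and Aqp3 were higher in CIAKI (0.90 and 0.59). Aqp2 was also higher in icariin than in control kidneys (1.26, adjusted p = 0.0318). Among all tested features 20.8% were called higher and 20.5% lower in CIAKI. The part of the change in cell makeup in the ribosomal protein result was not tested.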

How the data were processed

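Kidney RNA of 9 rats was made into TruSeq libraries and sequenced, per the labels' protocols. Bowtie 0.12.2 and the build mm8, a mouse genome, were named in the submitters' processing notes, while the identifiers are rat Ensembl genes, so the reference used is unclear. The counter and its treatment of reads shared by gene copies and a strand setting are not given in the sources read. The authors deposited a gene table in CPM, the unit tested here. Its values were whole multiples of 1 read in 100% of cases, to within 0.1 read, and the reads recovered this way equalled all 23850 counts the authors deposited for selected mRNAs. FPKM values of those mRNAs were copied from the authors' deposited table and replace the CPM per coding length that had been planned, since no protein table was used here.

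Tests used limma 3.58.1 (R 4.3.3) with an intensity trend on log2(CPM + 1), with group as the factor and all 9 libraries, for the 16731 features that reached 1 CPM in 3 or more libraries. P-values were two-sided and adjusted by Benjamini-Hochberg over all features, and the threshold was 0.05. Fold changes on this scale understate those of low genes. Each library was 1 rat. The tests were tested on simulated data. Alternatives were edgeR 4.0.16 and DESeq2 1.42.0 on the recovered reads, other scalings, pseudocounts and filters, and leaving out each library. Date-like symbols of 25 genes had replaced gene names, and these genes are not named.

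The members, gene lists and tests were chosen with earlier results of these data known. Genes named with values were 20 core members, the 6 with most reads, the 6 largest and 3 smallest called changes per comparison, and every member not called; other genes were named after their values were seen, beside the list genes of smallest p. Some genes that the rule names are not reported here. No column of another sample was found.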

Additional observations from a re-analysis of the deposited data

How the results depend on the processing

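The medians of the members kept their sign in all 23 alternatives. Shares of all features called were taken for the main test only, so the member counts below stand without them. The number higher in CIAKI than in control was 61 to 68, and the number lower in icariin than in CIAKI 60 to 65, under other tools, scalings, filters and pseudocounts. Leaving out 1 library gave 60 to 67 higher in CIAKI, 0 to 1 lower, 57 to 66 lower in icariin than in CIAKI, 0 to 1 higher, and 0 higher and 0 to 1 lower in icariin than in control. The medians then were 0.55 to 0.70, -0.65 to -0.45 and 0.07 to 0.12 on the log2 scale. Of the members called in the main test, 59 stayed called higher in CIAKI and 55 called lower under icariin in every alternative run. Rps10l1 was called lower in CIAKI (1 member) under upper-quartile factors, under DESeq2, with only the 2 groups compared and without ICA-3, and higher in icariin than in CIAKI (1 member) under DESeq2 and without ICA-3. DESeq2 called 2 members higher in icariin than in control, and without ICA-1 the limma test called 1 lower, Rplp2. The share of reads rose to 0.83% in control, 1.32% in CIAKI and 0.886% in icariin kidneys without mitochondrially encoded genes, and to 0.85%, 1.35% and 0.911% with 4 further ribosomal protein genes added.

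Among the 39 named members, the direction turned only for 4 that did not pass in these comparisons. In CIAKI against control, Rpl10l lay at -0.0448 without CON-3 (up to 0.5462 over the libraries left out), Rpl30 at -0.3127 without CON-3 and -0.3416 without CIAKI-3 (-0.3416 to 0.4196 over the libraries left out), Rpl35a at 0.02 under quantile normalization and Rps4y2 at -0.1379 without CON-1 (to 1.3018 without CON-2). In icariin against CIAKI, Rpl30 lay at 0.0596 under upper-quartile factors, 0.0559 under quantile normalization, 0.0104 with a scale without ribosomal protein genes and the top 50 features, 0.412 without CIAKI-3 and 0.4133 without ICA-3 (from -0.3492 without CIAKI-2). Rpl35a lay at -0.118 without ICA-3 (to 0.9154 without ICA-2). Rps4y2 lay at 0.0232 under upper-quartile factors, 0.2425 without CIAKI-3 and 0.1472 without ICA-2 (from -0.2977 without CIAKI-1). The cause was not tested.

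Replicate numbers were shared by the groups, and the labels do not say that a number pairs rats. The deviations of same-numbered libraries correlated at -0.0349 to 0.0813 and those of differently numbered libraries at -0.1023 to 0.0364. Correlations of groups this small cannot exclude a pairing. With the replicate number as a block, 65 members were higher in CIAKI than in control, 64 lower in icariin than in CIAKI and 0 differed between icariin and control in either direction, and the medians were 0.641, -0.5756 and 0.0867. The few reads limited the precision of the 4 members under 100 reads in some library. Rps4y2 had 8 reads in CON-1 and 499 in CON-2, and the cause of this difference was not tested.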
